A study of Rattus norvegicus with 2 samples.

Results

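The genes described here are those that the deposited table annotates with the Gene Ontology process term defense response and that are neither chemokines, solute carriers nor a short set of named cytokine, complement, acute-phase and inflammatory genes. Of 2325 rows in the table, 48 carried the term. Leaving out 6 rows by symbol and 1 row without a gene name left 41 genes. The annotation is coarse: none of the 26 named rows with the term response to wounding and none of the 5 with inflammatory response also carried defense response. Well-known defense genes such as Tlr2 and Lbp carried none of these terms and lie outside the 41. The table itself holds only genes that the authors had selected for a change, so every one of the 41 had already passed their filter. No row of the authors' deposited table has an absolute log2 ratio under 1.00 or a false discovery rate above 0.000996.

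Defense response is the set of reactions by which cells sense microbes or damage and limit them. Receptors at the surface, in endosomes and in the cytosol recognise microbial or host danger molecules. They signal through adaptors and transcription factors such as NF-kappaB and AP-1, and the cell then releases soluble recognition proteins, lipid mediators and reactive oxygen. Stromal cells of bone marrow carry many of these components and are known for secreting proteins that dampen as well as drive inflammation.

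The comparison rests on 1 library of untransfected bone marrow mesenchymal stem cells from Sprague-Dawley rats, at passages 3 to 5, and 1 library of such cells taken for RNA on day 10 after Pdx1 and Ngn3 had been transfected into them. These are transcription factors of pancreatic and endocrine development. Controls received no transfection, so the procedure and the introduced genes differ together, and how long the controls were cultured is not stated in the labels. The library totals implied by the table were 7800831 and 7415094 reads. With 1 library a condition there is no replicate check and no test, and each interval below is an exact 95% interval for counting error alone. In a bulk sample, more cells of a type and more RNA per cell cannot be told apart. Of 19 stromal markers 10 were in the table, 5 higher and 5 lower (3 and 5 under TMM and median-of-ratios scaling, described below), with summed levels of 2406 and 1132 RPKM (reads scaled by transcript length and library total, untransfected first). Leukocyte markers had 4 of 39 genes in the table, 3 higher and 1 lower, with summed levels of 10.6 and 24.6 RPKM. Gzmb, a granzyme of cytotoxic lymphocytes, had 16 and 216 reads (14.2-fold higher), Cd74, the class II invariant chain, had 96 and 5 reads (18.3-fold lower), and Cd4, which the naming rule did not pick, had 0 and 23 reads. The stromal markers Itgb1 and Thy1, named as the most abundant, were 2.04-fold and 3.41-fold lower. They made up most of the summed stromal levels, with 1057 and 519 RPKM for Itgb1 and 1101 and 322 RPKM for Thy1. The 5 higher stromal markers were 2.58-fold to 11.2-fold higher on the library totals. Egfl7, the 1 endothelial marker listed of 11, was 3.37-fold lower. The part of these cell types in the results was not tested.

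In transfected cells 27 of the 41 genes were higher and 14 were lower, by a ratio of at least 2-fold whose interval excluded 1. The increases ranged from 2.03-fold for the scavenger receptor Colec12 to 106-fold for the secreted protein Scube1. The latter is against a floor of 3 reads, with an exact lower limit for 0 reads of 85.9. Decreases ranged from 2.08-fold for an osteopontin-like gene to 9.51-fold for the inflammasome sensor Nlrp3. Among all 2325 rows 63.5% were called higher and 36.5% lower, and among the 1665 rows with a named rat gene 61.0% and 39.0%. The 65.9% of the 41 genes that were higher lay near these values, so the balance of directions is no result about these genes. Their median log2 ratio was 1.34, beside 1.24 over all rows. Median levels were also close to the rest, at 6.87 and 13.0 RPKM for the 41 genes and 6.54 and 10.2 RPKM over all rows. The genes are therefore described by role. The roles were assigned by hand after the members and their values were known, and no test was made of them. Counts by role and by gene list below rest on few genes and are to be read beside the shares over all rows.

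**Figure D1:**
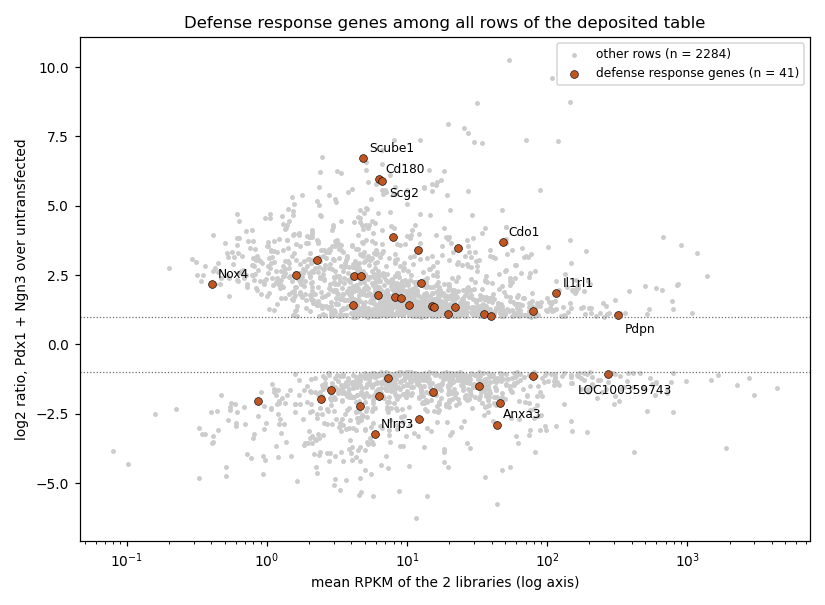
Log2 ratio of transfected over untransfected reads against the mean RPKM of the 2 libraries (log axis) for the 41 defense response genes (filled, outlined points) and the other 2284 rows (grey). The dotted lines mark 2-fold changes, between which the deposited table holds no row. The 41 genes run from Nlrp3 at -3.25 to Scube1 at 6.73, the latter against a floor of 3 reads. This lies inside the range of all rows, which reach 1218-fold higher and 76.5-fold lower.

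Another scaling shifts all ratios together. TMM factors moved every log2 ratio by -0.78 and median-of-ratios factors by -1.20, and scaling by the reads in the table moved it by 0.10. Under these the 41 genes were called 15 higher and 14 lower, 12 higher and 14 lower, and 27 higher and 13 lower. Both sets of factors were computed on genes selected for change. Because both shift every ratio downward, they can remove higher calls but no lower call. Over all 2325 rows, higher calls made up 46.4% of calls under TMM and 37.6% under median-of-ratios factors. Directions and calls below are given on the implied library totals, with the calls that TMM and median-of-ratios scaling leave. Under median-of-ratios scaling the log2 ratios of Colec12, Pdpn, Pxk, Bcl3 and Lgals3bp turned negative. They lay close to no change, from -0.18 to -0.0057, and none of these genes was called.

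**Figure D2:**
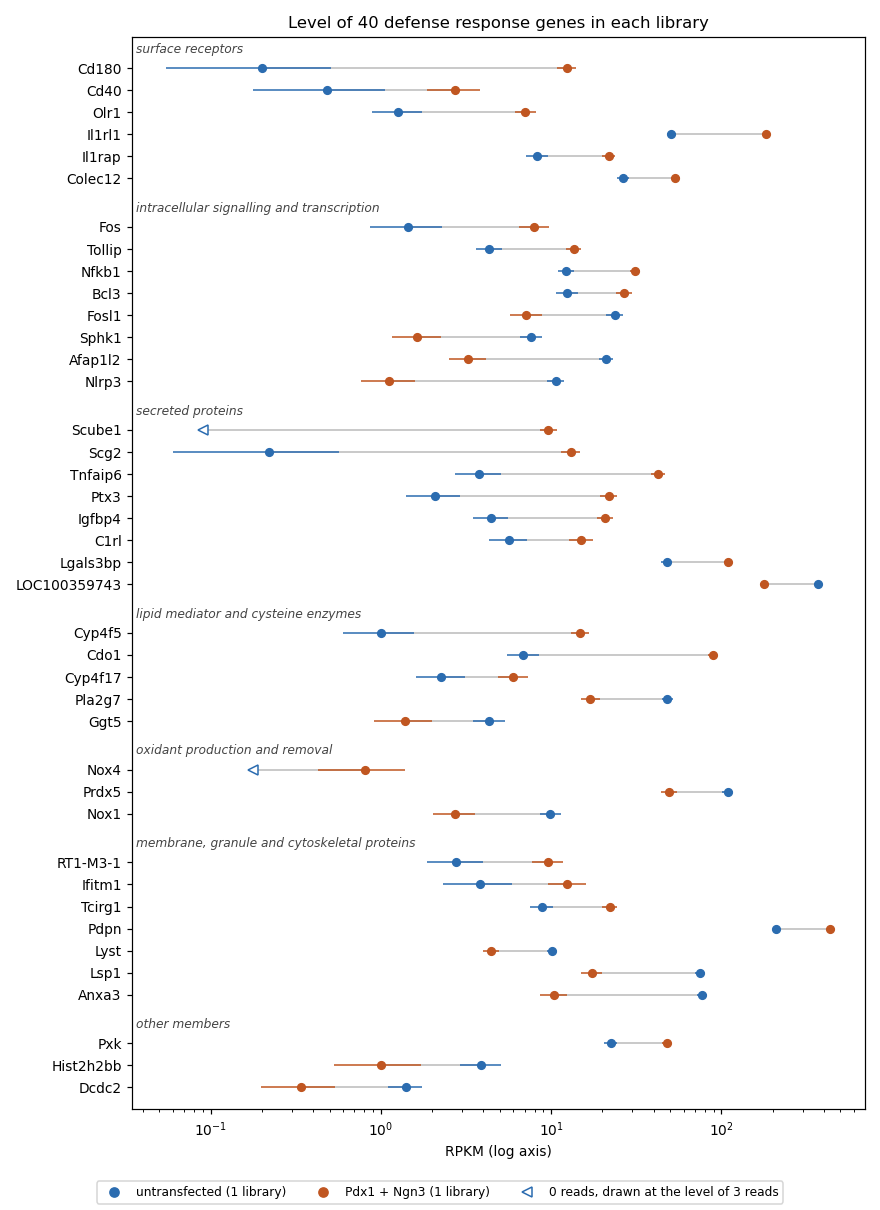
Level in RPKM (log axis) of 40 of the 41 genes in the untransfected (blue) and the Pdx1 + Ngn3 library (orange), grouped by role, with exact 95% Poisson intervals as bars. The 6 surface receptors drawn lie to the right in transfected cells, 4 of 8 signalling genes lie to the left, and Scube1 and Nox4, with 0 untransfected reads, are drawn at the level of 3 reads.

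Transfection went with a higher level of 7 of 7 surface receptors, beside 63.5% of all rows. TMM left 5 called higher and median-of-ratios scaling 4, with Colec12 turned and Il1rl1 and Il1rap above a ratio of 1 but no longer called. Cd180, a homologue of Toll-like receptors that modulates their signalling in B cells, had 4 untransfected and 235 transfected reads, or 0.200 and 12.4 RPKM. That is 61.8-fold higher (interval 23.8 to 229), from a level near the limit of detection. Cd40, a receptor of the tumour necrosis factor family through which antigen-presenting cells are activated, had 6 and 32 reads and remained low, at 0.486 and 2.72 RPKM. Its 5.61-fold increase has a wide interval (2.31 to 16.4). Olr1, the lectin-like receptor for oxidised low-density lipoprotein, had 37 and 196 reads (1.26 and 7.05 RPKM), 5.57-fold higher (3.91 to 8.15). These 3 receptors lay at or below 1.26 RPKM in untransfected cells, whereas the scavenger receptor Colec12, which binds microbes and modified lipoprotein, was already at 26.4 RPKM and reached 53.6 RPKM. Colec12 was 2.03-fold higher (1.84 to 2.25), the smallest increase of the 41 genes.

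Both subunits of the interleukin 33 receptor were among them. Il1rl1, the ligand-binding chain also called ST2, had 1024 and 3488 reads (50.8 and 182 RPKM) and was 3.58-fold higher (3.34 to 3.85). The cDNA that stands for this row is Fit-1S, the short secreted form, and reads of the secreted and the membrane form cannot be separated in the table. Il1rap, the accessory chain shared by receptors of the interleukin 1 family, had 185 and 460 reads (8.32 and 21.8 RPKM) and was 2.62-fold higher (2.20 to 3.12). Of 30 cytokines of the interleukin 1 family and others in a fixed list, 4 were in the table, none of them a member. All 4 were higher, beside 63.5% of all rows. All 4 ratios stayed above 1 under each of the 4 scalings, and 3 were called higher under TMM and under median-of-ratios scaling. Il33, the ligand of Il1rl1, had 71 and 3171 reads (3.68 and 173 RPKM), 47.0-fold higher (37.1 to 60.3). Il1rn, the secreted antagonist of the interleukin 1 receptor, had 45 and 388 reads, 9.07-fold higher (6.65 to 12.6). Of 37 cytokine and related receptors in a fixed list, 6 were in the table, 5 higher and 1 lower, against 4 and 1 under TMM and 1 and 1 under median-of-ratios scaling. Of the 6, 3 were members (Il1rl1, Il1rap and Cd40). Outside the members, Il6st, the signalling chain of the interleukin 6 receptor family, went from 64.0 to 258 RPKM, and Il1r2, the decoy receptor for interleukin 1, had 6 and 31 reads.

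Il1rap was 1 of 2 members whose promoter window, 250 bases before to 50 after the RefSeq start site in build GRCr8, held the interferon-stimulated response element, searched on both strands as GAAA, 2 free bases and GAAA. The window of 1 of its 2 listed start sites (chr11:87704212-87704511, minus strand) is printed 5′ to 3′. The match, in capitals, is at bases 190 to 199, ahead of the start site. In the window of the other start site the match lies at bases 271 to 280, after that start site.
Il1rap: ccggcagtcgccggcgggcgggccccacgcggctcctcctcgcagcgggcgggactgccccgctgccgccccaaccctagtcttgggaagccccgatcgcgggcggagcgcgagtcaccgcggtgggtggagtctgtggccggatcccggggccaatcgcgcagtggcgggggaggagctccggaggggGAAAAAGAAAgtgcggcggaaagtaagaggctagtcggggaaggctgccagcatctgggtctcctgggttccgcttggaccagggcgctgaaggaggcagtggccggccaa
The match is of a purine run and is a description of letters, not of a bound site. The other member with it, Lgals3bp, is shown with the secreted proteins.

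Intracellular signalling genes and transcription factors divided evenly, 4 higher and 4 lower. Under TMM and under median-of-ratios scaling 1, Fos, was called higher and 4 lower. The NF-kappaB components Nfkb1 and Bcl3 and the adaptor Tollip were called higher on the library totals but not under those scalings, with log2 ratios of 0.57, 0.33 and 0.88 under TMM and 0.14, -0.10 and 0.46 under median-of-ratios scaling. Nfkb1, which encodes the p105 precursor of the p50 subunit, had 346 and 835 reads (12.3 and 31.3 RPKM), 2.54-fold higher (2.24 to 2.89). Bcl3, a nuclear protein of the inhibitor-of-kappaB family that binds p50 dimers, had 174 and 355 reads (12.5 and 26.8 RPKM), 2.15-fold higher (1.79 to 2.59). Tollip, an adaptor that restrains Toll-like and interleukin 1 receptor signalling, had 128 and 384 reads (4.32 and 13.6 RPKM), 3.16-fold higher (2.58 to 3.89). The 4 lower genes ranged from 3.29-fold for Fosl1, whose interval, like that of Sphk1, overlaps that of Tollip, to 9.51-fold. Fos, the other higher gene, reached 5.49-fold. Nlrp3, the cytosolic sensor of the inflammasome that activates caspase 1, had 320 and 32 reads (10.6 and 1.12 RPKM), 9.51-fold lower (6.60 to 14.1). Afap1l2, an adaptor of Src and phosphoinositide 3-kinase signalling, had 459 and 67 reads (21.1 and 3.24 RPKM), 6.51-fold lower (5.03 to 8.55). Sphk1, the kinase that makes sphingosine 1-phosphate, had 187 and 38 reads (7.65 and 1.64 RPKM), 4.68-fold lower (3.29 to 6.82). All 4 lower genes were called lower under each scaling tried, but TMM and median-of-ratios factors lower every ratio and could not remove these calls.

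The AP-1 family members went opposite ways. Fos had 18 and 94 reads (1.45 and 7.98 RPKM), 5.49-fold higher (3.29 to 9.67). Fosl1, which encodes Fra-1, had 315 and 91 reads (23.6 and 7.17 RPKM), 3.29-fold lower (2.60 to 4.20). Fosl1 was the more abundant of the pair per length in untransfected cells, and in transfected cells the intervals of their levels, 6.45 to 9.76 RPKM for Fos and 5.77 to 8.80 RPKM for Fosl1, overlapped.

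Nfkb1 was the 1 member of 31 with a promoter window whose window held the kappaB motif, searched as GGGA, 1 free base and TTTCC, which 0.362% of all 33469 windows held. The window lies at chr2:226805413-226805712 (minus strand), and the match, in capitals, is at bases 254 to 263, just after the start site at base 251.
Nfkb1: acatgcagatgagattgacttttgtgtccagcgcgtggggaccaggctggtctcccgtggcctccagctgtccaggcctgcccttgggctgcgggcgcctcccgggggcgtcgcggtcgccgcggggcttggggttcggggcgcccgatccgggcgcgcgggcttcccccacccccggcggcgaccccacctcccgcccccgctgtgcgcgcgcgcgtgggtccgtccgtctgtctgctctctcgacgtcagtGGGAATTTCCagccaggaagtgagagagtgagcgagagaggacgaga
Among 53 fixed genes of pattern recognition and NF-kappaB signalling, 11 were in the table, 9 higher and 2 lower, beside 63.5% of all rows higher. The calls were 3 and 2 under TMM and 1 and 2 under median-of-ratios scaling. The members Nfkb1, Bcl3, Tollip and Nlrp3 were 4 of these 11. The most abundant of the others were Lbp, the lipopolysaccharide binding protein (267 and 1013 reads, 18.2 and 72.6 RPKM, 3.99-fold higher), and Tlr2, the receptor for bacterial lipopeptides (191 and 621 reads, 9.37 and 32.0 RPKM, 3.42-fold higher).

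**Figure D3:**
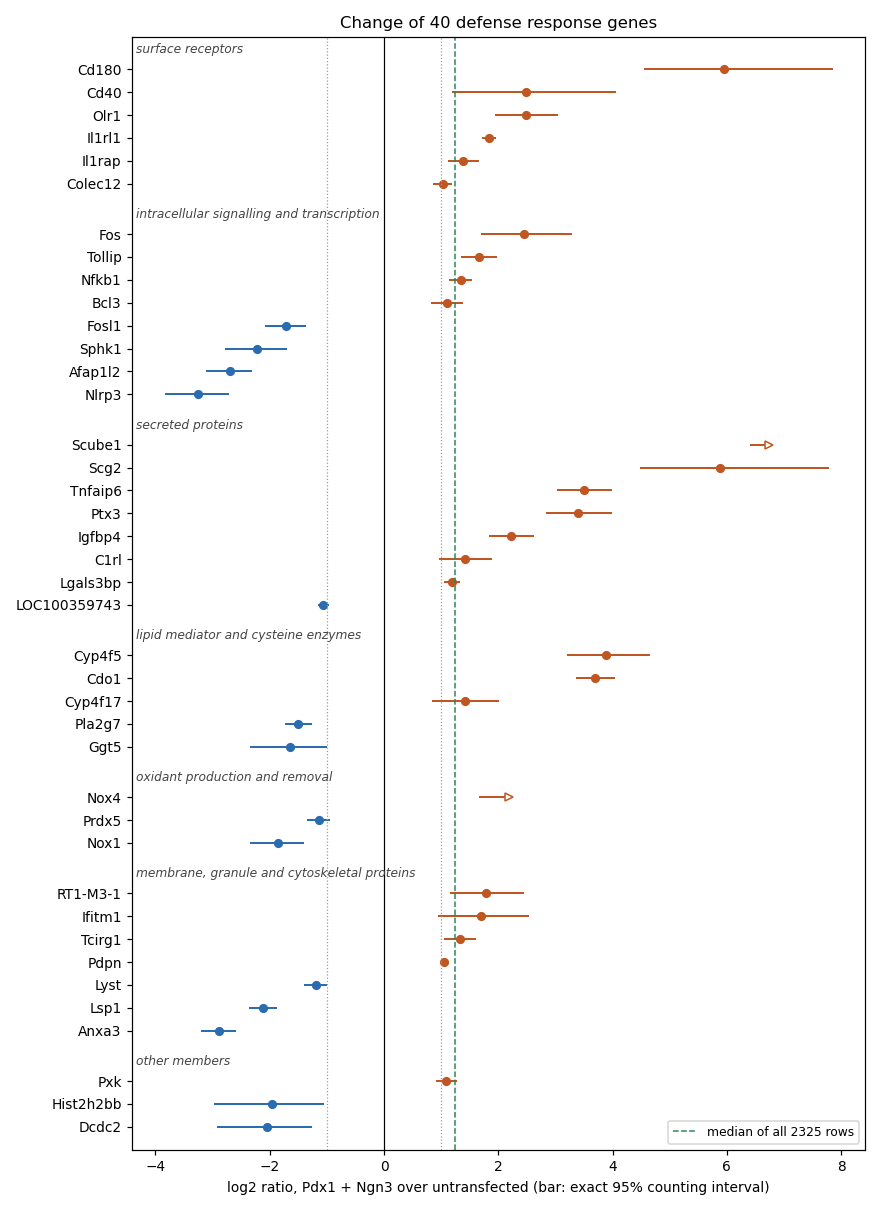
Log2 ratio of transfected over untransfected reads for 40 of the 41 genes by role, with exact 95% counting intervals (bars), 2-fold limits (dotted) and the median of all 2325 rows (dashed, 1.24). Open triangles mark ratios against a floor of 3 reads for genes with 0 untransfected reads. Nlrp3 and Fos, at -3.25 and 2.46, are the ends of the signalling group.

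Secreted proteins were higher in 7 of 8 cases, beside 63.5% of all rows. Of the 7, 5 were called higher under TMM and under median-of-ratios scaling. C1rl (log2 ratios of 0.64 and 0.22) and Lgals3bp lost the call, and the log2 ratio of Lgals3bp was -0.0057 under median-of-ratios scaling. Scube1, an EGF-repeat glycoprotein of platelets and endothelium, had 0 untransfected and 303 transfected reads. The transfected level was 9.64 RPKM (8.59 to 10.8). Against a floor of 3 reads, or 0.0908 RPKM, Scube1 was 106-fold higher. The exact interval of the untransfected level reaches 0.112 RPKM. The separate exact interval of the ratio has a lower limit of 85.9-fold. Scg2, the granule protein secretogranin II and precursor of the leukocyte attractant secretoneurin, had 4 and 224 reads (0.221 and 13.0 RPKM), 58.9-fold higher (22.7 to 218). Tnfaip6 and Ptx3 had similar folds from low but clearly detected levels. Tnfaip6, the hyaluronan-binding protein TSG-6 known as an anti-inflammatory product of stromal cells, had 43 and 460 reads (3.78 and 42.6 RPKM), 11.3-fold higher (8.22 to 15.8). Ptx3, the long pentraxin that marks microbes for uptake, had 31 and 310 reads (2.07 and 21.7 RPKM), 10.5-fold higher (7.26 to 15.8). Both proteins are known to bind each other in hyaluronan-rich matrix, and both were called higher under each of the 4 scalings.

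Igfbp4, an insulin-like growth factor binding protein, had 76 and 338 reads (4.44 and 20.8 RPKM), 4.68-fold higher (3.64 to 6.08). C1rl, a serine protease resembling complement C1r, had 61 and 155 reads (5.64 and 15.1 RPKM), 2.67-fold higher (1.98 to 3.66). Lgals3bp, a galectin-binding glycoprotein of plasma and matrix, was the most abundant of the higher secreted genes, with 800 and 1742 reads (47.7 and 109 RPKM). It was 2.29-fold higher (2.11 to 2.49). The exception was LOC100359743, named osteopontin-like in the table, whose cDNA matched rat osteopontin in the deposited comparison with known proteins. It had 4367 and 1992 reads (370 and 177 RPKM), 2.08-fold lower (1.98 to 2.20), and remained the most abundant of the secreted genes in both libraries.

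The promoter window of Lgals3bp (chr10:104127799-104128098, minus strand) held the interferon element at bases 201 to 210, in capitals, ahead of the start site at base 251.
Lgals3bp: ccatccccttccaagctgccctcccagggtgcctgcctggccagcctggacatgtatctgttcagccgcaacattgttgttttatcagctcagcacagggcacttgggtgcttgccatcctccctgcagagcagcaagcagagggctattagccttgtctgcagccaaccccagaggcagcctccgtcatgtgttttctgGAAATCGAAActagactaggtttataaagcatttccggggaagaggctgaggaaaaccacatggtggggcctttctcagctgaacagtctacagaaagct
This element was in 2 of 31 member genes with a window (6.45%) and in 3.92% of all windows.

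Enzymes of lipid mediators and of cysteine were split, 3 higher and 2 lower, or 2 and 2 called under TMM and median-of-ratios scaling, where Cyp4f17 lost the call. Cyp4f5 and Cyp4f17 belong to the cytochrome P450 family 4F, which hydroxylates leukotrienes and fatty acids. Cyp4f5 had 19 and 267 reads (0.998 and 14.8 RPKM), 14.8-fold higher (9.28 to 24.9). Cyp4f17 had 38 and 96 reads, with level intervals of 1.60 to 3.10 and 4.86 to 7.33 RPKM, and was 2.66-fold higher (1.81 to 3.98). Cdo1, the dioxygenase that starts cysteine breakdown towards taurine, had 88 and 1084 reads (6.87 and 89.0 RPKM), 13.0-fold higher (10.4 to 16.3), and was the most abundant enzyme of this group in transfected cells. The lower members also act on lipid mediators. Pla2g7, which inactivates platelet-activating factor, had 674 and 227 reads (48.1 and 17.0 RPKM), 2.82-fold lower (2.42 to 3.30). Ggt5, which trims the glutamyl residue from cysteinyl leukotrienes, had 89 and 27 reads (4.33 and 1.38 RPKM), 3.13-fold lower (2.02 to 5.02). Of 38 fixed genes of lipid mediators and kinins, 5 were in the table, 2 higher and 3 lower, or 1 and 3 called under TMM and median-of-ratios scaling. Those outside the members included Pla2g2a, a secreted phospholipase (53 and 512 reads, 10.2-fold higher), and F3, tissue factor (608 and 209 RPKM, 2.92-fold lower). F3 is on the list although it acts in coagulation.

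The NADPH oxidases among the 41 genes, Nox4 and Nox1, went opposite ways. Nox4, which releases hydrogen peroxide, had 0 and 13 reads. Its transfected level was 0.806 RPKM (0.429 to 1.38), on the fewest reads of the 41 genes. Against a floor of 3 reads Nox4 was 4.56-fold higher, with an exact lower limit of 3.21. Nox1, which makes superoxide, had 199 and 52 reads (9.90 and 2.72 RPKM), 3.64-fold lower (2.67 to 5.04). Nox1 thus remained the more abundant of the pair per length in transfected cells, with an interval of 2.03 to 3.57 RPKM against 0.429 to 1.38 for Nox4. Prdx5, a peroxiredoxin that removes peroxides, had 758 and 326 reads (109 and 49.3 RPKM), 2.21-fold lower (1.94 to 2.52). Among 49 fixed antimicrobial and lysosomal effectors 4 were in the table, 3 higher and 1 lower (2 and 1 called under TMM, 1 and 1 under median-of-ratios scaling), with Nox4 and Ptx3 as the members. The others were Hp, haptoglobin (71 and 159 reads, 2.36-fold higher), and Duox2, a dual oxidase (33 and 6 reads, 5.23-fold lower, interval 2.16 to 15.3). Duox1, in the table but in none of the lists and named after its value was seen, had a log2 ratio of -3.37. Under median-of-ratios scaling Nox4 was no longer called higher.

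Nox1 was the 1 lower member with a match to the wider kappaB form of GGG, 2 free bases and TTTCC, which was in 2 of 31 genes (6.45%), the other being Nfkb1, and in 1.53% of all windows. The window of Nox1 (chrX:101595471-101595770, minus strand) is printed because this gene and Nfkb1 share the form and moved in opposite directions. The match, in capitals, reads on the opposite strand, at bases 148 to 157.
Nox1: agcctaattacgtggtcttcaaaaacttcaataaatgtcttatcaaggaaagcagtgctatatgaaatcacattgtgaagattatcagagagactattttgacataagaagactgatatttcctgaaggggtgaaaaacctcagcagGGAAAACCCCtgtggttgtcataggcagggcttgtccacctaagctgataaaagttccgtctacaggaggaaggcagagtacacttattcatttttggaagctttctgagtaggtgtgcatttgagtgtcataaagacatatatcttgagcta

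Membrane, granule and cytoskeletal proteins were 4 higher and 3 lower. TMM left 1 called higher and median-of-ratios scaling 0, where Pdpn turned, and both left the 3 lower calls, which they cannot remove. RT1-M3-1, a class Ib histocompatibility molecule that presents formylated bacterial peptides, had 29 and 95 reads (2.77 and 9.55 RPKM), 3.45-fold higher (2.25 to 5.42). Ifitm1, which hinders virus entry, had 20 and 62 reads (3.82 and 12.4 RPKM), 3.26-fold higher (1.94 to 5.70). Tcirg1, a subunit of the proton pump of lysosomes, had 172 and 411 reads (8.80 and 22.1 RPKM), 2.51-fold higher (2.10 to 3.02). These genes were at modest levels, while Pdpn, podoplanin, a stromal surface protein that binds the platelet receptor CLEC-2, was the most abundant of the 41 genes in transfected cells. Pdpn had 3035 and 5995 reads (209 and 435 RPKM), 2.08-fold higher (1.99 to 2.17).

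The lower genes of this group were expressed at 10.2 to 77.0 RPKM in untransfected cells. Anxa3, a calcium-dependent membrane-binding protein of neutrophil granules, had 928 and 119 reads (77.0 and 10.4 RPKM), 7.41-fold lower (6.12 to 9.05). Lsp1, an actin-binding protein of leukocytes, had 839 and 184 reads (75.2 and 17.3 RPKM), 4.33-fold lower (3.69 to 5.11). Lyst, which sets the size of lysosomes and secretory granules, had 902 and 374 reads (10.2 and 4.44 RPKM), 2.29-fold lower (2.03 to 2.59). Of 50 interferon-related genes in a fixed list, which holds Ifitm1, 11 were in the table. Of these 10 were higher and 1 lower, beside 63.5% of all rows higher. Under TMM and under median-of-ratios scaling 3 and 1 were called, and median-of-ratios scaling put 7 ratios above 1 and 4 below. The most abundant others were Ifitm2 (67.0 and 324 RPKM, 4.84-fold higher) and the transcription factor Irf3 (27.5 and 67.2 RPKM, 2.45-fold higher).

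The remaining genes have a less direct link to defense. Pxk, a kinase-like protein of receptor trafficking, had 490 and 993 reads (22.5 and 47.9 RPKM), 2.13-fold higher (1.91 to 2.38). Dcdc2, a doublecortin-domain protein of microtubules, had 74 and 17 reads (1.40 and 0.338 RPKM), 4.14-fold lower (2.42 to 7.48). The histone H2B gene Hist2h2bb had 53 and 13 reads (3.88 and 1.00 RPKM), 3.88-fold lower (2.08 to 7.75). Counts of Hist2h2bb, Ifitm1, RT1-M3-1, the Cyp4f genes and LOC100359743 are uncertain, because these belong to families of similar genes and no source states how shared reads were counted.

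**Figure D4:**
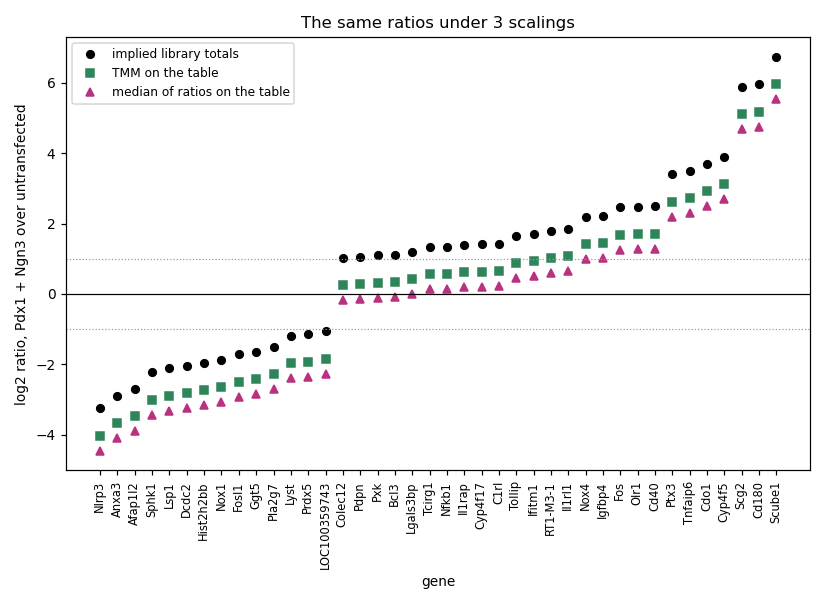
Log2 ratio of 40 of the 41 genes, ordered by value, under the implied library totals (circles), TMM (squares) and median-of-ratios factors (triangles) computed on the table. The 14 lower genes stay below -1 under all 3, as they must, because both sets of factors shift every ratio downward. From Colec12 to Lgals3bp, 5 genes cross 0 under median-of-ratios scaling.

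The call of higher held under all 4 scalings for 12 genes. Among them were the receptors Cd180, Cd40 and Olr1, the transcription factor Fos, the secreted proteins Scube1, Scg2, Tnfaip6, Ptx3 and Igfbp4, and the enzymes Cyp4f5 and Cdo1. When the interval bound nearest to 1 had to reach 2-fold, 20 genes were higher and 12 lower, beside 41.7% and 23.7% of all rows. The osteopontin-like gene, at 1.98, and Prdx5, at 1.94, were the lower genes below that bound.

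The selection did not use component and function annotations. Of the 41 genes, 7 (17.1%) carried the component term extracellular region part, against 7.45% of named rows, 5 of them higher and 2 lower. Cell surface was carried by 4 (9.76%, against 2.40% of named rows), all 4 higher. Iron ion binding was carried by Nox4, Cyp4f5, Cdo1 and Cyp4f17, all higher (9.76% against 1.38%). Of all named rows 61.0% were higher. Cyp4f17 lost its call under TMM, and Cyp4f17, Nox4 and the cell surface genes Il1rl1 and RT1-M3-1 did under median-of-ratios scaling. Process terms are the kind by which the genes were selected, so their shares are not independent of the selection. Among process terms, positive regulation of cytokine production was carried by 5 (12.2% against 0.961%). Of these Cd40, RT1-M3-1 and Bcl3 were higher and Afap1l2 and Nox1 lower. The process term response to reactive oxygen species was carried by 4 (9.76% against 0.961%), with Olr1 and Fos higher and Fosl1 and Prdx5 lower. The broad component terms lay at or below the named rows, with intracellular membrane-bounded organelle on 22.0% of the 41 genes against 23.8% and intrinsic to membrane on 17.1% against 19.8%, as did the function term binding (9.76% against 11.3%). The terms given were picked after their shares were seen. These are shares of annotation among selected genes, and no enrichment test was made.

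Other motifs were searched on both strands of the same windows. The STAT site TTCNNNGAA was in the windows of 5 of 31 genes (16.1%, against 8.87% of all windows), with Scg2 and RT1-M3-1 higher and Nlrp3, Sphk1 and Dcdc2 lower. The AP-1 site TGANTCA was in 4 (12.9% against 7.33%), with Tnfaip6 and Olr1 higher and Pla2g7 and Sphk1 lower. The C/EBP site TTNNGNAA was in 8 (25.8% against 41.3%), 4 higher and 4 lower, and it overlapped the interferon element in Lgals3bp. Members were counted by gene and all windows singly, and 10 of the 41 genes had no window. In none of these 3 sets did all genes move one way.

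Set beside the 41 genes were 29 named rows with the term inflammatory response or response to wounding, none of them left out by symbol. Of these 12 were higher and 17 lower (41.4% higher), against 7 and 17 called under TMM and 2 and 17 under median-of-ratios scaling. Their median log2 ratio was -1.25, against 1.34 for the 41 genes, and their median untransfected level was 28.0 RPKM, against 6.87. Because no row has a log2 ratio between -1 and 1, a median jumps across that gap once lower rows outnumber higher ones. The distance between the 2 medians is therefore no measure of a difference in size. Both sets are selections from the same 2 libraries, and the difference was not tested.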

How the data were processed

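RNA of 1 untransfected and 1 transfected culture was sequenced, and 1 table was deposited. The authors' counts are whole numbers of reads per gene, and the authors' RPKM values derive from them, with 0.001 written for 0 reads, per the file headers and values. The deposited log2 ratio is that of transfected over untransfected RPKM. The deposited p-value and false discovery rate come from a test not given in the sources used here, and compare 2 libraries, not conditions. Genome build rn4 is named in the submitters' processing notes. The aligner and counting tool: not given in the sources used here. Library totals were taken from count, length and RPKM, which gave 1 total per library in all but 1 row. Of 2325 rows, 660 (28.4%) name no rat gene and stayed in the counts over all rows.

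Ratios of reads per library total were computed with exact (Clopper-Pearson) 95% intervals of the share of 2 counts, and levels with exact Poisson intervals, in SciPy 1.17.1. Amplified reads carry no molecular identifiers here, so intervals cover counting error only. Where a library had 0 reads, 3 were used as a floor for the ratio. The exact 95% lower limit lies below that ratio and is given beside it. The ratio step was tested on simulated counts. TMM (edgeR 4.0.16) and median-of-ratios factors (DESeq2 1.42.0) were alternatives, with no count model. The members and gene lists were chosen with earlier results of these data known. The naming rule took the 30 members with the highest mean RPKM and the 5 higher and 5 lower ranked first by the bound of the interval closest to 1, which named 32. Of the other 9, Cd40, Olr1, Fos, Cyp4f17, Ggt5, Nox4, Hist2h2bb and Dcdc2 were named after their values were seen, and 1 enters the counts but is not reported here. From each gene list the rule allowed the 2 most abundant genes outside the members. Cd4 and Duox1 were named outside it. Of the 41 identifiers, 39 matched RefSeq of assembly GRCr8 and 31 had a promoter window in its table, from which all printed sequences come. Coordinates belong to GRCr8, not to the authors' build.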

Additional observations from a re-analysis of the deposited data

How the results depend on the processing

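The count of 27 higher genes fell to 15 under TMM and to 12 under median-of-ratios factors, which were computed on genes selected for change and can only remove higher calls here. The lower count was 14 under both. Over all 2325 rows the higher calls made up 46.4% and 37.6% of calls under these factors, against 63.5% (1476 higher and 849 lower, or 734 and 512 higher). The members' median log2 ratio of 1.34 was 0.57 under TMM and 0.14 under median-of-ratios factors. This median was 1.45 with scaling by table sums and 1.18 with ratios of RPKM + 1. It was 1.34 with at least 30 reads over both libraries and with 0.5 reads added. The log2 ratios of Bcl3 (-0.10), Colec12 (-0.18), Lgals3bp (-0.0057), Pdpn (-0.15) and Pxk (-0.11) turned under median-of-ratios factors. The remaining alternatives left 25 to 27 genes higher and 13 or 14 lower, and requiring the interval bound to reach 2-fold left 20 and 12. No member is in the leukocyte marker list, so leaving that list out changed nothing. No paired analysis was possible because each group has 1 library. Depth limits the ratios of Scube1, Nox4, Cd40, Cd180 and Scg2 most, each with 0 to 6 untransfected reads.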

Other observations

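Other lists of defense genes, outside the 41 genes but for Tnfaip6, added the following values. Of 27 genes known to restrain inflammation or oxidative damage, 6 were in the table, 4 higher and 2 lower under each of the 4 scalings. The lower ones were Gpx1, a glutathione peroxidase (127 and 44.3 RPKM, 2.87-fold lower), and Hmox1, heme oxygenase 1 (90.1 and 36.7 RPKM, 2.45-fold lower). Of 20 genes of adhesion and leukocyte recruitment, 6 were in the table, 3 higher and 3 lower, or 2 and 3 called under median-of-ratios scaling. Itga4, the integrin chain that binds Vcam1, had 77 and 1009 reads (2.64 and 36.4 RPKM) and was 13.8-fold higher (10.9 to 17.6), and the matrix protein Thbs1 was 2.30-fold lower. Of 22 antigen presentation genes, 3 were in the table, 1 higher and 2 lower, or 0 and 2 called under TMM and median-of-ratios scaling. Cd1d1, which presents lipids, had 41 and 92 reads (2.36-fold higher), and RT1-DMb, a class II peptide-loading chain, had 37 and 4 reads (8.79-fold lower, interval 3.16 to 34.0). None of these differences has a replicate check.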
